A study of Mus musculus with 2 samples.

Results

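The fibroblast growth factor (FGF) genes of the embryonic mouse aorta-gonads-mesonephros (AGM) region were followed in single cells, as 10 genes of 31053 in the matrices: the receptors Fgfr1, Fgfr2, Fgfr3 and Fgfr4, the ligands Fgf7, Fgf9 and Fgf10, and the feedback genes Spry1, Spry2 and Dusp6. They were chosen by name, with earlier results of these data known. The study dissected the AGM at embryonic day 11, dissociated it with collagenase and made 1 single-cell library (10x Genomics, 3′ ends) from PDGFRB +/+ (WT) embryos and 1 from PDGFRB -/- (KO) embryos, each loaded to recover 7000 cells. The KO deletion is carried by every cell, not by the perivascular cells alone. How many embryos went into a library is not given in the sources used here. With 1 library per genotype there is no replicate, so no difference below carries a test, and every interval is a 95% interval that covers counting error only.

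Most FGFs are secreted or cell-bound proteins that bind receptor tyrosine kinases and, through adaptor proteins, switch on the RAS and ERK kinases. Receptor isoforms differ between epithelium and mesenchyme, so that ligands of the Fgf7 and Fgf10 type signal mainly to epithelial receptors and Fgf9 mainly to mesenchymal ones. Sprouty proteins such as Spry1 and Spry2 dampen the signal upstream of ERK, and Dusp6 is a phosphatase that removes the activating phosphates of ERK. These feedback genes are commonly induced by the pathway they restrain, but other receptor tyrosine kinases can induce them too.

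Barcodes with at least 2000 UMIs and under 10% mitochondrial UMIs were used, 8253 of WT and 8165 of KO, from libraries of 179743201 and 174597654 UMIs in all, with a median of 13321 and 12391 UMIs per cell. Levels are given as UMIs of a gene per 1000000 UMIs (CPM). Pdgfrb, the deleted gene, was at 43.1 CPM in WT against 7.09 CPM in KO, and 2789 WT and 801 KO cells had a Pdgfrb UMI. Pdgfrb was thus low but not absent in the KO library, and 3′ counts do not show whether its transcripts held the deleted part. The study took KO cells with detected PDGFRβ expression out before its analysis, whereas they were kept here. Xist gave 793 CPM in WT but 0.415 in KO, whereas a sum over Y-linked genes gave 0.0266 and 163 CPM, so genotype, sex and library changed together and cannot be told apart. The libraries shared 20 barcodes among the cells used, where independent draws from the barcode list would give 9.9. Cells were gated by marker genes into 12 classes, and each name below means cells that are like that type by their markers. The 4 mesenchymal classes (sclerotome, mural, visceral and other mesenchyme) held 5248 WT and 5693 KO cells. Marker genes not used in the gates were higher in their own class than in the other cells for every class except the coelomic one, where Msln was at or near 0 in both libraries while Emx2 was at 110 and 89.4 CPM. The gates left 1215 WT and 1131 KO barcodes in no class, with medians of 2992 and 2996 UMIs.

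Fgfr1, the receptor used most widely in embryonic mesenchyme, was read in every class of both libraries. Its level was highest in sclerotome-like cells, the somite-derived precursors of the vertebrae, at 105 CPM (100 to 109) in WT against 121 CPM in KO. The other 3 mesenchymal classes followed at 83.6 to 89.3 CPM in WT and 88.2 to 98.0 CPM in KO. Endothelial cells held 61.1 and 56.2 CPM, macrophages 20.4 and 29.1 CPM, and erythroid cells, which should lack the gene, 12.9 and 7.37 CPM. Hbb-y, a globin gene, held 337188 and 351057 CPM in erythroid cells, which lowers the CPM of stray RNA there. Barcodes with at most 100 UMIs, which hold free RNA, held 60.4 and 78.0 CPM of Fgfr1. In macrophages the 6 markers of other mesenchyme summed to 574 and 366 CPM, against 2914 and 2373 CPM in their own class. The part of stray RNA in the macrophage values was not tested. Fgfr1 was read broadly and was graded across the classes, with the mesenchyme at the top.

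Fgfr2, whose epithelial isoform is the receptor for Fgf7 and Fgf10, had a narrower pattern. The 20 epithelial cells of each library stood at 74.8 CPM in WT against 72.1 CPM in KO, and sclerotome-like cells at 53.8 and 58.0 CPM. Visceral mesenchyme, the mesoderm around the gut and neighbouring organs, held 45.5 and 58.1 CPM, the KO value lying level with that of sclerotome. Muscle-gated cells held only 3.79 and 5.20 CPM, close to the 3.85 and 4.63 CPM of erythroid cells. 3′ counts do not separate the epithelial from the mesenchymal isoform. In the same sclerotome-like cells Fgfr1 and Fgfr2 UMIs were found together in 451 WT cells and 748 KO cells, where independent draws would give 416 and 701. Cells of high depth also raise such counts.

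Fgfr3, a receptor best known for restraining the growth of cartilage, followed Fgfr2 over the 12 classes with Pearson's r = 0.85, a description over classes that share libraries and depth. Its largest class values were 18.7 CPM from 19 UMIs in the WT epithelial cells and 11.5 CPM from 378 UMIs in KO sclerotome-like cells. Neither place held in all settings, since mural cells came first in WT after thinning and epithelial cells in KO when 1 more marker was needed. Barcodes of free RNA, those with at most 100 UMIs, held 7.65 and 8.06 CPM of Fgfr3, from 19 UMIs in each library. Muscle-gated cells held 0.948 and 0.743 CPM. Its level in visceral mesenchyme and sclerotome differed between the libraries and is described with the KO comparison below.

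Fgfr4, the receptor of the developing skeletal muscle lineage, had its highest level in muscle-gated cells. Both libraries held 25.1 CPM there, from 106 UMIs in WT and 203 UMIs in KO. No other class reached 5 CPM, and the mesenchyme as a whole held 0.506 and 0.986 CPM. Muscle-gated cells made up 2.81% of all UMIs in WT and 5.68% in KO, yet held 54.4% and 57.7% of the Fgfr4 UMIs. The mesenchyme, with 64.5% and 69.9% of all UMIs, held 25.1% and 27.8% of them. Fgfr4 UMIs were present in 39.2% of the muscle-gated cells of WT and 37.9% of those of KO, against 0.275% and 0.467% of erythroid cells, at median depths of 20409 and 18955 UMIs against 16795.5 and 19949.5. With every cell thinned to 2000 UMIs the muscle shares were 6.33% (3.08 to 11.3) and 3.90% (2.15 to 6.46), and no erythroid cell kept a Fgfr4 UMI. Muscle-gated cells with a UMI of Myog, the transcription factor of differentiating myoblasts, held 27.0 and 24.0 CPM and those without held 19.6 and 28.5 CPM, with overlapping intervals in each library.

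**Figure D1:**
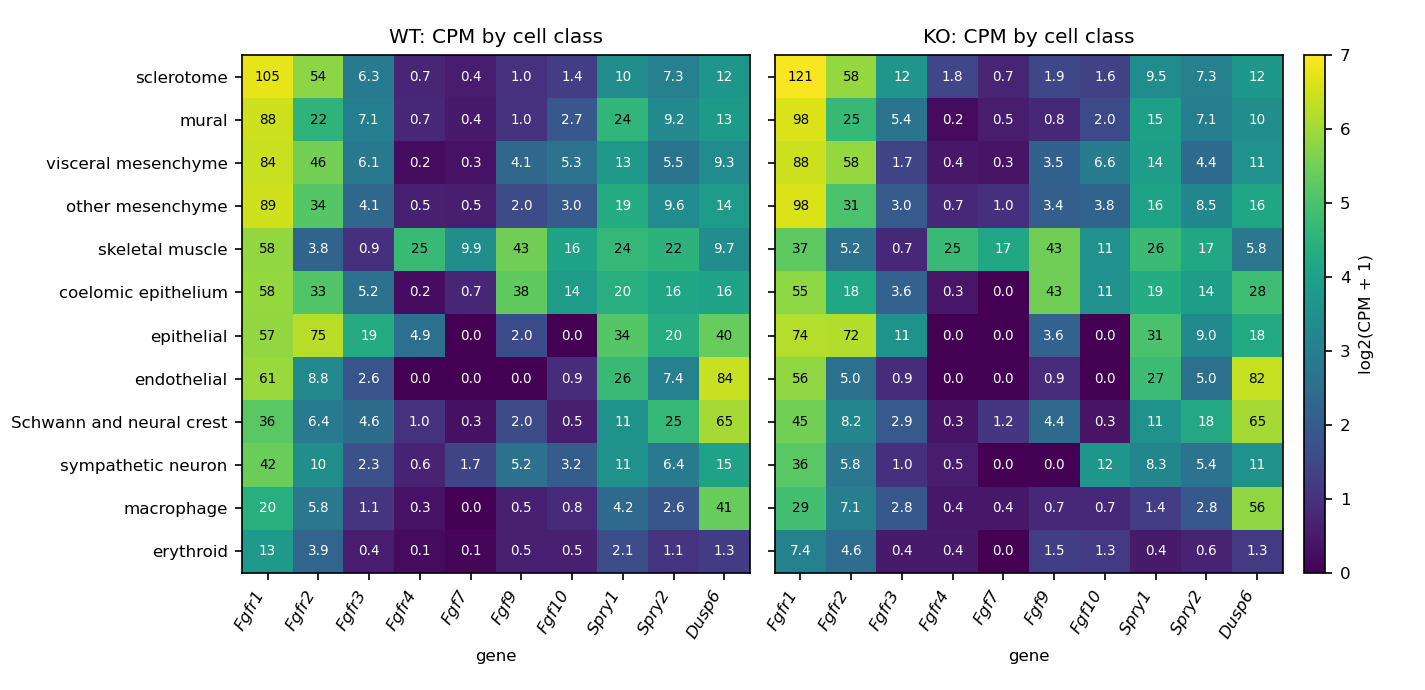
Levels of the 10 genes (columns) in the 12 marker-gated classes (rows) in WT and KO, as CPM of summed UMIs, with colour on a log2(CPM + 1) scale and the CPM written in each cell. Fgfr4 and Fgf7 stand out in skeletal muscle, Fgf9 in skeletal muscle and coelomic epithelium, and Dusp6 in endothelial, Schwann and macrophage classes, in both libraries.

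Fgf7, usually described as a mesenchymal growth factor for epithelia, had its highest level in the differentiating part of the muscle class. Muscle-gated cells held 41.6% of its UMIs in WT and 57.0% in KO. The mesenchyme, with 64.5% and 69.9% of all UMIs, held 40.6% and 30.6% of them. Muscle-gated cells with a Myog UMI held 13.3 CPM in WT (42 UMIs) and 22.7 CPM in KO (137 UMIs). Those without a Myog UMI held 0 UMIs in WT and 1 UMI in KO. The WT level with Myog was 4.76-fold that of a floor of 3 UMIs without Myog, and the interval of the log2 ratio began at 1.89. The KO ratio was 5.53 on the log2 scale (3.03 to 10.84). Of the 29 WT and 68 KO muscle-gated cells with a Fgf7 UMI, 29 and 67 also had Myog, which 115 of 158 and 264 of 359 muscle-gated cells had. In the mesenchyme Fgf7 stood at 0.423 and 0.745 CPM, and in barcodes with at most 100 UMIs, which hold free RNA, at 0.403 CPM from 1 UMI in WT and 5.09 CPM from 12 UMIs in KO. The mesenchymal level was close to this share of free RNA in WT and below it in KO. The share does not give the amount of stray RNA in a cell. Erythroid cells held 0.0740 CPM in WT and 0 in KO. Over the 12 classes the genes most like Fgf7 were Cdh15, a muscle cadherin that is itself a gate marker (r = 0.998), Synpo2l (0.996) and Mylk4 (0.996), and those most like Fgfr4 were Mb, the myoglobin gene (0.995), Cacng1 (0.993) and Apobec2 (0.990).

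Fgf9, a ligand for mesenchymal receptors, was highest in 2 classes. Muscle-gated cells held 43.4 CPM in each library, from 183 and 350 UMIs, and coelomic epithelium and gonadal ridge cells held 38.0 CPM (219 UMIs) and 43.4 CPM (131 UMIs). The intervals of these classes overlapped within each library. Within muscle Fgf9 was higher in cells with Myog than in those without, at 51.8 against 18.7 CPM in WT (log2 1.47, 0.80 to 2.22) and 47.9 against 30.0 CPM in KO (0.68, 0.27 to 1.10). Fgf7 and Fgf9 shared cells: 23 WT and 40 KO muscle-gated cells had both, against 12.3 and 25.6 if independent, a count that cells of high depth also raise. The gene most like Fgf9 over the classes was Fgf5, another FGF (r = 0.975), which muscle-gated cells held at 10.9 and 11.5 CPM. Unlike Fgf9, Fgf5 was not higher in the muscle cells with Myog, at 7.30 CPM against 21.5 CPM without in WT and 10.4 against 14.7 CPM in KO. Fgf4 had 9 and 26 UMIs and Fgf6 30 and 73 UMIs in muscle cells with Myog and none without Myog in either library. In WT the 0 UMIs of Fgf4 without Myog allow up to 3.45 CPM, above the 2.86 CPM of the cells with Myog.

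Promoters of Fgf7, Fgfr4 and Fgf9, 3 of the genes read in muscle-gated cells, are printed here because muscle regulators of the MyoD family, to which Myog belongs, bind the E-box CANNTG. The windows run from 250 bases before to 50 after the annotated start (RefSeq, GRCm38.p6, 5′ to 3′ on the gene's strand), with each CANNTG match in capitals. A match was held by 72.3% of 32544 promoters of this length, so its presence is common.
Fgf7, chr2:126034408-126034707, plus strand: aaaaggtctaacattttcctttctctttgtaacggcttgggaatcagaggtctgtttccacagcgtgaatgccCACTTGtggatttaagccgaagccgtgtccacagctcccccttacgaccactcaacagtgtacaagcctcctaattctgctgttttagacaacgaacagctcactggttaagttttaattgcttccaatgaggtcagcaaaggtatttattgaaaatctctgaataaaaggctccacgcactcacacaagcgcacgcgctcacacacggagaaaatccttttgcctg
Fgfr4, chr13:55152568-55152867, plus strand: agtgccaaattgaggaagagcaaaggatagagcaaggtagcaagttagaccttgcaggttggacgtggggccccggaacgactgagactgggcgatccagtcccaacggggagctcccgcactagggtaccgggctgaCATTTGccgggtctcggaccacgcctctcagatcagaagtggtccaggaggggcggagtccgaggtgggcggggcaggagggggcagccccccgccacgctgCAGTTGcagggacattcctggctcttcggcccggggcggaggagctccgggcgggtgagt
Fgf9, chr14:58072436-58072735, plus strand: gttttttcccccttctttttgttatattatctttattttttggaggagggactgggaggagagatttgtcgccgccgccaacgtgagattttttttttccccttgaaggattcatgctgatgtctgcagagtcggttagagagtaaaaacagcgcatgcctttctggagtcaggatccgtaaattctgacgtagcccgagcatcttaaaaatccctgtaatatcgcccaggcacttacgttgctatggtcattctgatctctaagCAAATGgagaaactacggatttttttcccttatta
Fgf7 held 1 match, Fgfr4 held 2 and Fgf9 held 1. None of these 3 windows held CAGCTG, the form with a GC centre, which 16.4% of the promoters held. In GENCODE M21 on GRCm38 the genes span chr2:126034658-126091185 (Fgf7), chr13:55152640-55168759 (Fgfr4) and chr14:58070547-58112720 (Fgf9).

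**Figure D2:**
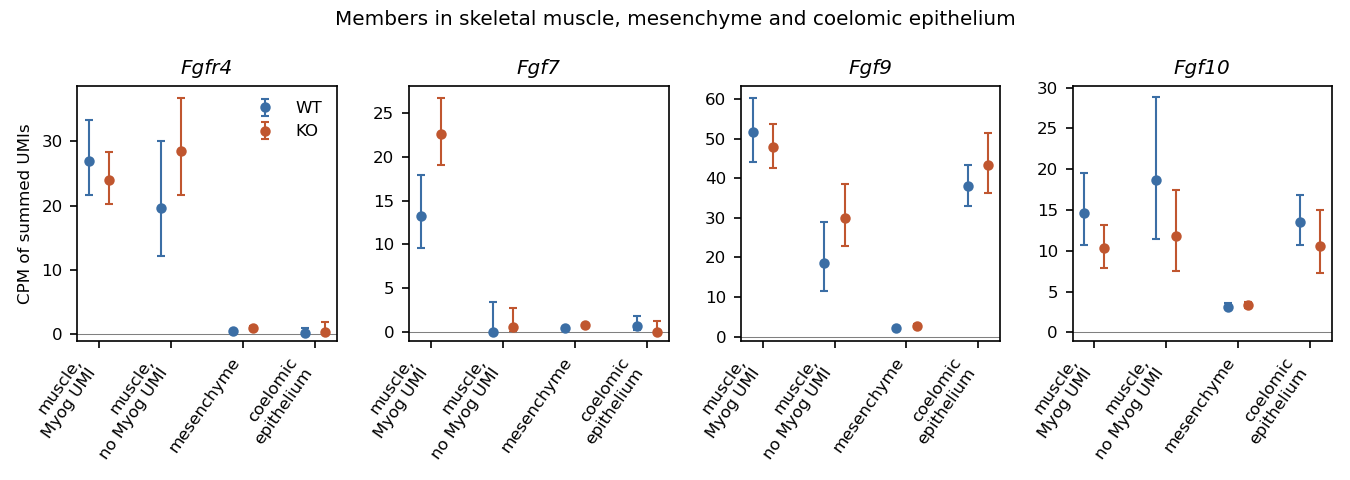
CPM of Fgfr4, Fgf7, Fgf9 and Fgf10 in muscle-gated cells with and without a Myog UMI, in mesenchyme and in coelomic epithelium, with exact Poisson 95% intervals of the UMI sums, WT in blue and KO in orange. Fgf7 is at 0 and 1 UMIs in muscle without Myog, whereas Fgfr4 is present in both muscle parts.

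Fgf10, the mesenchymal ligand that drives budding of lung and limb, was more spread. It stood at 15.6 and 10.7 CPM in muscle-gated cells, 13.5 and 10.6 CPM in coelomic cells and 5.33 and 6.63 CPM in visceral mesenchyme. Sympathetic neurons held 11 UMIs (3.19 CPM) and 24 UMIs (11.7 CPM). Over the classes Fgf10 followed Fgf9 (r = 0.85), and in WT the likeness extended to single cells. In mesenchyme the log2 ratio of Fgf9 in cells with a Fgf10 UMI over those without was 1.61 (1.11 to 2.09) in WT. In KO it was 0.50 (-0.077 to 1.04). Coelomic cells with a Fgf10 UMI held 64.0 CPM of Fgf9 in WT, against 19.8 CPM in those without (log2 1.69, 1.27 to 2.13). In KO the reverse split gave the same direction, with 14.5 CPM of Fgf10 in coelomic cells with Fgf9 and 5.42 CPM in those without (1.42, 0.17 to 2.87), while cells with both numbered 6 against 5.63 if independent. In visceral mesenchyme, cells with a Fgf10 UMI held more Dusp6 in both libraries, 16.3 against 8.04 CPM in WT (1.02, 0.55 to 1.47) and 18.8 against 9.04 CPM in KO (1.06, 0.51 to 1.58). The split by Fgf9 gave no common direction for Dusp6. In KO coelomic cells those with a Fgf9 UMI held 16.2 CPM of Dusp6 against 42.6 CPM in those without (-1.39, -2.10 to -0.71). In visceral mesenchyme the Fgf9 split of Dusp6 was 0.94 (0.35 to 1.48) in WT but -0.85 (-2.01 to 0.12) in KO. The visceral cells with Fgf10 also held less Fgfr2, 32.9 against 47.8 CPM in WT (-0.54, -0.83 to -0.25) and a ratio of -0.31 (-0.61 to -0.015) in KO. WT visceral cells with a UMI of Barx1, described below, likewise held more Fgf10, more Dusp6 and less Fgfr2. The part of the Barx1 cells in these splits was not tested.

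Dusp6 was highest in classes other than those with the most Fgf7, Fgf9 or Fgf10. Endothelial cells held 84.4 and 82.3 CPM, Schwann and neural crest cells 65.4 CPM in each library, and macrophages 40.6 and 55.7 CPM. The mesenchyme held 12.2 and 13.8 CPM and muscle-gated cells, with their Fgf9 and Fgfr4, only 9.72 and 5.82 CPM. Erythroid cells were at 1.33 and 1.26 CPM. Within WT muscle Dusp6 was lower with Myog (6.03 CPM) than without (20.5 CPM, log2 ratio -1.77, -2.73 to -0.81), and in KO the intervals of the parts overlapped (5.30 and 7.37 CPM). Frmd8 (r = 0.987), Itga6 (0.947) and Pxn (0.946) were most like it over the classes.

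Spry1 and Spry2 were more evenly spread than Dusp6 over the classes outside blood. Spry1 was spread over epithelial (34.4 and 30.6 CPM), endothelial (25.9 and 27.1 CPM), muscle-gated (24.2 and 26.5 CPM), WT mural (23.6 CPM) and coelomic cells (19.8 and 19.2 CPM), with overlapping intervals between neighbours in that order. In KO muscle Spry1 was lower with Myog (20.7 CPM) than without (43.7 CPM, -1.08, -1.48 to -0.67), whereas the WT parts stood at 23.8 and 25.2 CPM. Among the epithelial cells, 5 of WT and 4 of KO had a UMI of Pax2 or Pax8, transcription factors of the nephric duct. These cells held 115 and 108 CPM of Spry1, and the others 10.2 and 22.0 CPM. The split was chosen after the values were seen and has few cells, with 27 and 6 UMIs of Spry1 in the nephric ones. In WT the same split gave 115 CPM of Dusp6 (27 UMIs) beside 17.9 CPM, and the 2 UMIs of the KO cells do not allow a comparison. Spry2 had its largest values in Schwann and neural crest cells (24.7 and 17.6 CPM), followed by muscle-gated (22.0 and 17.1 CPM), epithelial (19.7 and 9.01 CPM) and coelomic cells (16.5 and 13.9 CPM), where each interval overlapped that of its neighbour. With thinning the largest Spry2 value was instead in muscle-gated cells of WT and coelomic cells of KO. Free RNA held 12.1 and 17.0 CPM of Spry2, from 30 and 40 UMIs. The KO values lay near or below that value, which is not an amount in a cell. Erythroid cells held 1.11 and 0.632 CPM.

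Between the libraries, 8 of the 10 genes lay within the fold in mesenchyme. A gene was counted past the fold when its KO over WT ratio was at least 0.5 on the log2 scale in size with at least 20 UMIs in both libraries together. In mesenchyme 2 of 10 were higher in KO and 0 lower, while 8.65% of 16287 genes were higher and 9.15% lower. The median of the 10 ratios was 0.15, against 0.019 over all these genes. Fgfr1 (0.19, 0.15 to 0.23), Fgfr2 (0.13, 0.063 to 0.19), Fgfr3 (0.12, -0.055 to 0.29), Fgf10 (0.076, -0.15 to 0.30), Spry2 (-0.12, -0.27 to 0.022) and Dusp6 (0.18, 0.066 to 0.29) lay within the fold. So did Fgf9 at 0.32 (0.053 to 0.59) and Spry1 at -0.27 (-0.38 to -0.17), with intervals that did not hold 0.

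The 2 past the fold were low genes. Fgfr4 had 49 UMIs in WT and 98 in KO mesenchyme (log2 0.96, 0.45 to 1.49), and Fgf7 41 and 74 UMIs (0.81, 0.25 to 1.40). The 7 muscle gate markers moved the same way in mesenchyme, from a summed 8.64 to 13.2 CPM, all 7 being detected in both libraries, beside 1483 and 1615 CPM in muscle-gated cells. Without the mesenchymal cells that held a UMI of these markers the ratios were 0.61 for Fgfr4 and 0.81 for Fgf7. With free RNA subtracted at 10% of the UMIs, Fgf7 turned to -0.70 and Fgfr4 stood at 1.63. With the 4 mesenchymal classes weighted equally the ratios were 0.51 for Fgfr4 and 0.56 for Fgf7. By class, Fgfr4 had 14 and 59 UMIs in sclerotome, 4 and 5 in visceral mesenchyme and 7 and 1 in mural cells. In other mesenchyme it had 24 and 33 UMIs (0.40, -0.40 to 1.23).

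**Figure D3:**
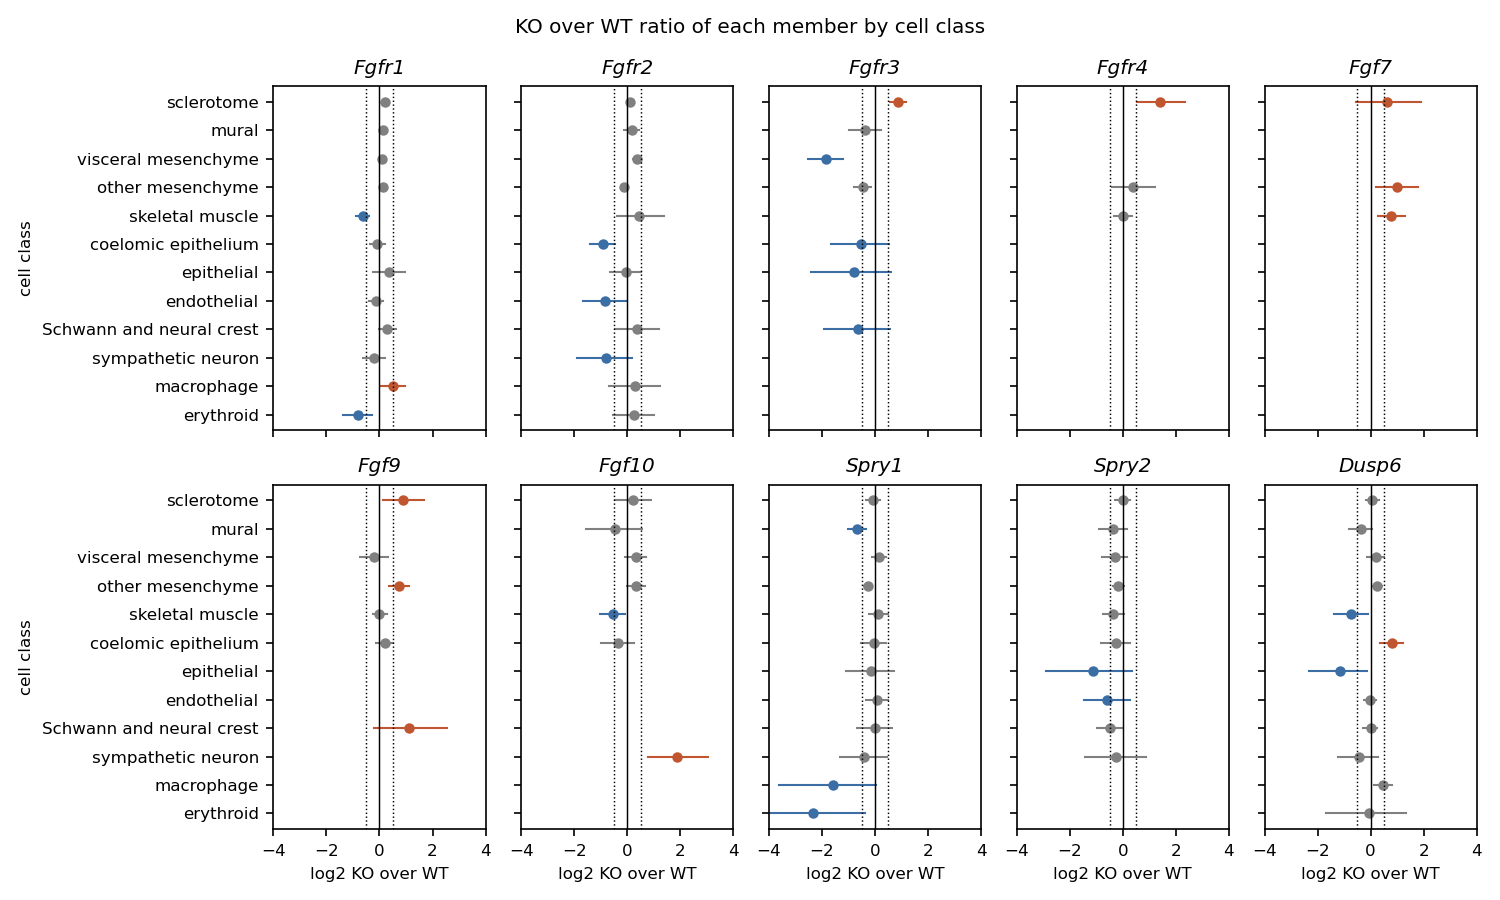
KO over WT ratio (log2) of each gene by cell class, with exact conditional 95% intervals cut at the axis limits, orange for ratios at or above 0.5, blue for those at or below -0.5 and grey between; classes with under 20 UMIs are left empty. Fgfr3 is the gene with the clearest opposite directions, higher in sclerotome and lower in visceral mesenchyme.

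The mesenchymal Fgfr3 ratio combined opposite ratios of its classes. In sclerotome-like cells Fgfr3 was at 6.32 CPM (131 UMIs) in WT against 11.5 CPM (378 UMIs) in KO, a log2 ratio of 0.86 (0.57 to 1.16). The ratio was 0.80 in the cells with a UMI of Uncx, a marker of the posterior sclerotome, and 0.95 in those without. In visceral mesenchyme it was lower in KO, 6.06 CPM (133 UMIs) against 1.69 CPM (23 UMIs), with a ratio of -1.84 (-2.54 to -1.19). The WT levels of sclerotome and visceral mesenchyme were below the free RNA value given above, which is not an amount in a cell. Erythroid cells held 0.444 and 0.421 CPM. Under 15 alternative settings the sclerotome ratio stayed between 0.81 and 1.42 and the visceral ratio between -3.14 and -1.50.

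Most visceral Fgfr3 UMIs of WT, 104 of 133, lay in cells with UMIs of both Wnt2 and Postn. In WT, visceral cells with a UMI of Wnt2, a mesodermal signal of the lung and gut region, held 10.0 CPM and those without 1.87 CPM. In a further split chosen after the values were seen, cells with both Wnt2 and Postn, an extracellular matrix gene, held 14.8 CPM (104 UMIs in 259 cells), and cells with Wnt2 and no Postn UMI 2.11 CPM (9 UMIs in 175 cells). The 42 KO cells with Wnt2 and Postn held 0 Fgfr3 UMIs in 1322175 UMIs. A floor of 3 UMIs there lay 6.54-fold below WT, and the interval of the log2 ratio ended at -2.38. Among the other visceral cells the intervals of the libraries overlapped, at 2.11 and 2.36 CPM with Wnt2 alone and 1.87 and 1.75 CPM without Wnt2. The Wnt2 cells themselves differed between the libraries. They held 602 CPM of Lum and 575 CPM of Dcn in WT and 23.8 and 32.3 CPM in KO, Postn was at 365 and 26.1 CPM and Acta2 at 564 and 126 CPM, while Foxf1 (79.2 and 102 CPM) and Tcf21 (96.3 and 136 CPM), regulators of visceral mesoderm, were not lower. The part of these matrix genes' cells in the Fgfr3 ratio was not tested.

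**Figure D4:**
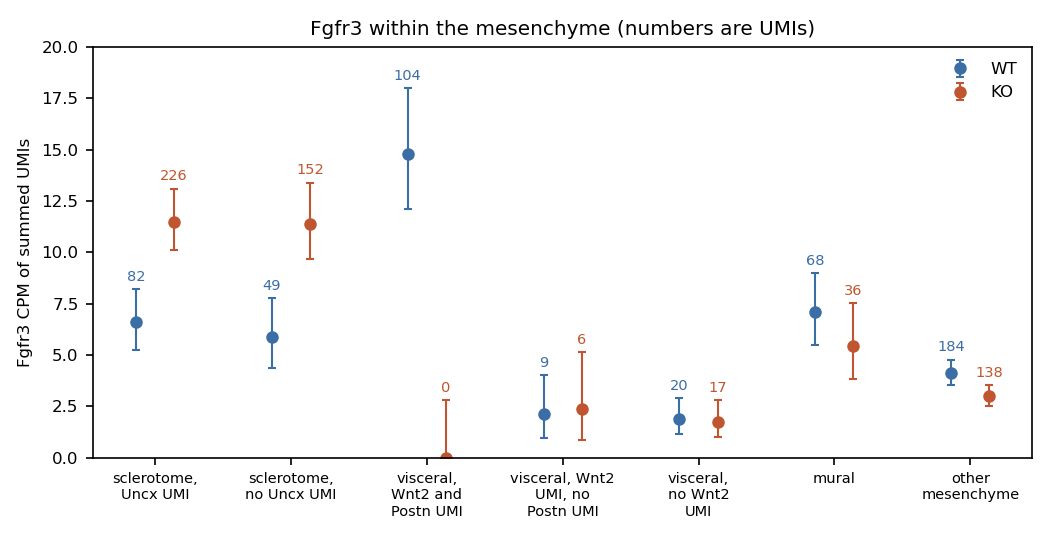
Fgfr3 CPM with exact Poisson 95% intervals in parts of the mesenchyme, WT in blue and KO in orange, with the number of Fgfr3 UMIs above each point. KO is above WT in both sclerotome parts, and the WT cells with Wnt2 and Postn UMIs, at 14.8 CPM, have no KO counterpart with a Fgfr3 UMI.

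Sclerotome-like cells had 4 of 10 genes higher in KO and 0 lower, beside 10.8% of 13964 genes higher and 5.39% lower. Besides Fgfr3 these were Fgfr4, from 14 to 59 UMIs (0.675 and 1.79 CPM, log2 1.41, 0.55 to 2.36), Fgf9, from 21 to 61 UMIs (0.87, 0.13 to 1.66), and Fgf7, from 9 to 22 UMIs (0.62, -0.55 to 1.92). Free RNA held 2.42 CPM of Fgfr4 in WT and 1.70 CPM in KO, from 6 and 4 UMIs. Of Fgf9 it held 1.61 and 2.97 CPM, from 4 and 7 UMIs, beside 1.01 and 1.85 CPM in sclerotome-like cells. These free RNA values are not amounts in a cell. The muscle markers of sclerotome summed to less in KO, 15.7 CPM beside the 18.8 CPM of WT, but more KO cells held Myog. Myog had 192 UMIs in 17 of the 1242 WT cells, with up to 52 in 1 cell. In KO it had 173 UMIs in 56 of the 1971 cells, with up to 43 in 1 cell. Cdh15, another of these markers, was level (2.51 and 2.61 CPM). The part of muscle RNA in the sclerotome ratios was not tested. The Fgfr4 ratio stayed past the fold under every alternative, between 1.04 and 1.92, whereas Fgf9 came to 0.39 without cells that passed more than 1 gate and Fgf7 changed sign, to -0.050, when 1 more marker was needed. KO held more sclerotome-like cells, 1971 against 1242. Fgf9 was also higher in other mesenchyme, at 2.02 and 3.37 CPM from 90 and 156 UMIs, near the free RNA values above. The ratio in other mesenchyme was 0.74 (0.36 to 1.13) and stayed between 0.61 and 1.21 over the alternatives. Muscle markers moved the same way in that class, from a summed 6.78 to 14.3 CPM with all 7 detected in both libraries, and without cells that held 1 of them the Fgf9 ratio was 0.75.

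Dusp6 had another pattern across the sclerotome parts in each library. Cells with a Uncx UMI held 14.3 CPM and those without 7.93 CPM in WT (log2 0.85, 0.44 to 1.28), against 12.1 and 12.6 CPM in KO (-0.052, -0.34 to 0.24). KO was above WT in the cells without Uncx (0.67, 0.25 to 1.10), while the whole class stood at 11.8 and 12.3 CPM. Free RNA held 10.5 and 23.7 CPM of Dusp6 in WT and KO, from 26 and 56 UMIs, which are not amounts in a cell.

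Spry1 was lower in the KO mural class, the smooth muscle-like and pericyte-like cells of vessels, where PDGFRβ is a known receptor. It stood at 23.6 CPM (227 UMIs) in WT against 14.8 CPM (98 UMIs) in KO, a log2 ratio of -0.67 (-1.03 to -0.33), and stayed between -0.83 and -0.63 over the alternatives. It was past the fold alone among the 7 genes with at least 20 UMIs in this class, beside 9.44% of 12540 genes lower. All 6 sclerotome markers were detected in mural cells of both libraries and summed to 91.4 CPM in WT and 153 CPM in KO, while the 8 endothelial markers summed to 58.9 and 36.7 CPM. Their part in the Spry1 ratio was not tested. Spry2 (9.15 and 7.10 CPM, -0.37, -0.91 to 0.16) and Dusp6 (13.1 and 10.1 CPM, -0.37, -0.82 to 0.066) were below WT with intervals that held 0. In other mesenchyme Spry1 was at 19.2 and 15.8 CPM (-0.28, -0.43 to -0.14). The intervals of the ratio held 0 in sclerotome (-0.092, -0.35 to 0.17) and in visceral mesenchyme (0.16, -0.11 to 0.43).

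Visceral mesenchyme had 1 of the 8 genes with enough UMIs lower (Fgfr3) and 0 higher, beside 11.2% of 13534 genes lower and 7.97% higher. The class was not made of the same cells in both libraries: 287 of 914 WT cells and 26 of 576 KO cells had a UMI of Barx1, a transcription factor of the stomach wall. WT cells with Barx1 held more Fgf9 (9.32 against 1.72 CPM), Fgf10 (10.6 against 2.92), Spry1 (22.9 against 8.22), Spry2 (9.46 against 3.65) and Dusp6 (13.8 against 7.29) than those without. They held less Fgfr2 (37.6 against 49.1 CPM) and Fgfr3 (3.35 against 7.29 CPM). The share of all genes that differed in this split was not counted. Among cells without Barx1, 4 of the 8 genes with enough UMIs were higher in KO and 1 (Fgfr3) was lower, beside 8.71% and 12.0% of 13185 genes. The 4 were Fgf10 (2.92 and 6.44 CPM, log2 1.14, 0.59 to 1.71), Fgf9 (1.72 and 3.70 CPM, 1.10, 0.38 to 1.86), Spry1 (8.22 and 14.2 CPM, 0.78, 0.44 to 1.13) and Dusp6 (7.29 and 10.4 CPM, 0.51, 0.13 to 0.89). For the whole class these ratios were 0.32, -0.21, 0.16 and 0.19, while the share of Barx1 cells differed between the libraries. The part of the Barx1 cells in these ratios was not tested further.

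In muscle-gated cells 1 of the 9 genes with enough UMIs was higher in KO and 3 lower, beside 7.58% of 11584 genes higher and 11.7% lower. Fgf7 was at 9.95 and 17.1 CPM (log2 0.78, 0.27 to 1.31), but came to 0.14 when every cell was thinned to 2000 UMIs and to 0.44 without cells above 50000 UMIs. Fgfr1 was at 57.8 and 37.3 CPM (-0.63, -0.88 to -0.38), Dusp6 at 9.72 and 5.82 CPM (-0.74, -1.37 to -0.098) and Fgf10 at 15.6 and 10.7 CPM (-0.55, -1.03 to -0.069). Without cells above 50000 UMIs these 3 came to -0.20, -0.46 and -0.16, short of the fold. The 6 markers of other mesenchyme were all detected in the muscle-gated cells of both libraries and summed to 1050 CPM in WT against 619 CPM in KO, and their part in these ratios was not tested. Fgfr4, Fgf9 and Spry1 were at 25.1, 43.4 and 24.2 CPM in WT and 25.1, 43.4 and 26.5 CPM in KO. The share with a Myog UMI was 115 of 158 cells in WT and 264 of 359 in KO.

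In the coelomic class 1 of the 8 genes with enough UMIs was higher and 2 were lower, beside 8.22% of 11709 genes higher and 11.9% lower. Dusp6 was at 15.8 and 27.5 CPM (log2 0.80, 0.35 to 1.24), Fgfr2 was at 33.3 and 17.5 CPM (-0.93, -1.39 to -0.48) and Fgfr3 at 5.21 and 3.64 CPM (-0.52, -1.66 to 0.52). Free RNA, whose share is not an amount in a cell, held 10.5 and 23.7 CPM of Dusp6. With cells thinned to 2000 UMIs the ratios of Dusp6 and Fgfr2 came to 0.18 and 0.18, and with under 5% mitochondrial UMIs to 2.49 and 0.074. Spry2 in epithelial cells (20 and 5 UMIs, -1.13) ranged from -1.51 to -0.72 over 14 alternatives and gave no ratio with thinning. The other ratios past the fold in the remaining classes each came within it or changed sign in some setting. Fgfr1 in macrophages (77 and 82 UMIs, 0.51, 0.044 to 0.98) came to -0.31 without cells that passed more than 1 gate. Fgf9 in Schwann and neural crest cells (8 and 15 UMIs, 1.11, -0.22 to 2.56) came to 0.037 in the same setting, and muscle markers there summed to 20.3 and 87.9 CPM. The sympathetic neurons' Fgf10, 11 UMIs in 8 WT cells and 24 UMIs in 9 KO cells (1.88, 0.79 to 3.05), was one of them, at median depths of 23379 and 9990 UMIs per cell, and thinning turned it to -1.56.

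The study described 4 cell populations by PDGFRβ and NG2, the product of Cspg4, and these were drawn here in WT mesenchyme by a UMI of each gene: 395 cells with both (DP), 2081 with Pdgfrb alone (PDGFRβ-S), 242 with Cspg4 alone (NG2-S) and 2530 with neither (DN). A gate on UMIs also selects for depth, and the median was 23636, 16212, 14065 and 11565.5 UMIs. Fgfr3 was at 8.25 CPM in DP against 5.36, 6.60 and 3.99 CPM in the others, in that order (DP over the rest of mesenchyme 0.76, 0.44 to 1.07). The intervals of DP (6.76 to 9.97) and NG2-S (4.35 to 9.60) overlapped, and with cells thinned to 2000 UMIs the share with a Fgfr3 UMI was 2.03% in DP and 2.48% in NG2-S. Spry1 was also highest in DP, at 20.9 CPM against 16.6, 13.9 and 14.3 CPM (0.43, 0.23 to 0.62). Fgfr2 was highest in NG2-S, at 60.6 CPM against 37.5, 38.1 and 40.5 CPM in DP, PDGFRβ-S and DN (NG2-S over the rest 0.64, 0.45 to 0.83), and Spry2 lowest there, at 3.91 CPM (-1.09, -1.90 to -0.38). By CPM, Fgf9 (2.97 CPM, 0.75, 0.35 to 1.15) and Fgf10 (3.78 CPM, 0.41, 0.066 to 0.74) were highest in DN. For each of these ligands the intervals of DN and DP overlapped, and DN did not come first with thinning. The thinned share with a Fgf9 UMI was 0.529% in PDGFRβ-S and 0.474% in DN. For Fgf10 the thinned share was 0.759% in DP and 0.672% in DN. Fgfr1 was lowest in DN (81.1 CPM, -0.25, -0.32 to -0.18). Dusp6 lay between 10.5 and 12.9 CPM in the 4 populations, with overlapping intervals.

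Of 48 other genes of the pathway, 38 had at least 20 UMIs in mesenchyme, 6 were past the fold upward and 3 downward, beside 8.65% and 9.15% of all genes, with a median ratio of 0.14. Among 11 other genes of the FGF family, not all of them receptor ligands, 4 were higher in KO: Fgf8 (56 and 177 UMIs, 1.62, 1.18 to 2.08), Fgf18 (219 and 554 UMIs, 1.30, 1.07 to 1.53), Fgf22 (11 and 41 UMIs, 1.86, 0.87 to 2.97) and Fgf5 (74 and 151 UMIs, 0.99, 0.58 to 1.41). Fgf14 (-0.59, -1.31 to 0.11) and Fgf20 (-0.87, -2.23 to 0.40) were past the fold downward with intervals that held 0. Fgf13, the one of the 11 with the most UMIs, was at 0.20. Of 13 feedback and response genes, Dusp4, a nuclear ERK phosphatase, was higher (3.25 and 8.22 CPM, 1.34, 1.15 to 1.53), as was Il17rd, a membrane inhibitor of FGF signalling (20.9 and 32.1 CPM, 0.62, 0.54 to 0.70), and Egr1, the one with the most UMIs, was at 0.16. Etv4 (0.016) and Etv5 (0.25), transcription factors that FGF signalling induces, stayed within the fold. Frs3, an adaptor, was lower among 10 adaptors and ERK kinases (2.22 and 1.13 CPM, -0.98, -1.32 to -0.64), and Map2k2 was level at 196 and 197 CPM. The receptor-like and co-receptor genes stayed within the fold, with Flrt2 at 64.5 and 89.0 CPM (0.46, 0.42 to 0.51). The 63.1 CPM of Fgf8 in KO epithelial cells, beside 1.97 CPM in WT, came from 35 UMIs of which 34 were in 1 cell.

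Over the 12 classes the remaining members had these closest genes, as descriptions. They were Fbxl7 for Fgfr1 (r = 0.967), Sema3f for Fgfr2 (0.938), Ppp1r36 for Fgfr3 (0.961), Cygb for Fgf10 (0.935), Srebf2 for Spry1 (0.916) and Ctnnal1 for Spry2 (0.934). Between members, Fgfr4 and Fgf7 were the closest pair (0.98), and Dusp6 had no r above 0.25 with any other member.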

How the data were processed

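The deposited files hold counts of UMIs (unique molecular identifiers) per gene and barcode in unfiltered matrices, 1 per library, made by the authors with Cell Ranger 3.1.0 on mm10 (GRCm38) per the submitters' processing notes. Each gene's UMIs were summed per library and class and divided by all UMIs of that class (CPM). A class needed UMIs of 3 gate markers, or 4 for endothelial, macrophage and erythroid cells, and of cells that passed more than 1 gate (675 in WT, 552 in KO), those where no class led by 15 percentage points of its markers (186 and 162) were left out of the classes. No doublet caller was run. A setting without cells above 50000 UMIs stands in its place. CPM has an exact Poisson interval, a share an exact binomial one and a ratio an exact conditional binomial one, all at 95%. No test was made, since each genotype had 1 library. Thinned values draw 2000 UMIs per cell with a fixed seed. Named beside the 10 genes are, by rule, the pathway genes past the fold with the most abundant per role, and the 3 genes with the highest Pearson's r of log2(CPM + 10) over the 12 classes among genes with at least 500 UMIs. The Fgf4, Fgf5, Fgf6, Etv4, Etv5, Lum, Dcn, Acta2, Foxf1 and Tcf21 values were chosen after seeing the data. So were the splits by Wnt2, by Postn, by Uncx and by Pax2 or Pax8. The 10 genes, the pathway list and the gates were chosen with earlier results of these data known. Ratios were tested on simulated counts, and the thinned cells were checked against the same cells before thinning. Promoters came from RefSeq (GRCm38.p6), matched by symbol for 9 of the 10 genes. Python 3.11.15, numpy 2.4.6, scipy 1.17.1 and pandas 2.3.3 were used.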

Additional observations from a re-analysis of the deposited data

Results flagged for a closer look

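For 4 of the genes, classes past the fold lay on opposite sides of no change between KO and WT. The share of all genes with ratios on opposite sides was not counted, so 4 cannot be read as many or few. With 1 library per genotype the difference between classes was not tested. Fgfr1 was higher in KO macrophages (log2 0.51) and lower in KO erythroid (-0.81) and muscle-gated cells (-0.63). Fgfr3 was higher in KO sclerotome (0.86) and lower in KO visceral mesenchyme (-1.84), and both stayed past the fold in every alternative that could be computed. Fgf10 was higher in KO sympathetic neurons (1.88) and lower in KO muscle-gated cells (-0.55). Dusp6 was higher in the KO coelomic class (0.80) and lower in KO muscle-gated (-0.74) and epithelial cells (-1.16). None of these Fgfr1, Fgf10 and Dusp6 ratios stayed past the fold in every alternative. Fgfr1 in macrophages reached -0.31, Fgf10 in sympathetic neurons -1.56 and Dusp6 in epithelial cells 1.28, each with the other sign.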

How the results depend on the processing

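There were 566 ratio values under 13 alternatives and 3 added after seeing the data. Of these values 513 moved by less than the counting interval and 36 moved by more. The other 17 values, some from the same ratio, were of ratios past the fold and changed sign. 1 of the 13, no filter on UMIs, leaves each ratio as it was, so its values are among the 513 by construction. It is also counted wherever a number of alternatives is given for a single ratio. The median ratio of the 10 genes in mesenchyme ranged from 0.074 to 0.21. Without the KO cells that had a Pdgfrb UMI it was 0.18, with Fgfr2 at 0.19 and Fgf10 at -0.089. The number past the fold was 2 under every alternative except thinning to 2000 UMIs per cell, which gave 0 because under 20 UMIs were left for Fgfr4 and Fgf7. Under 5% mitochondrial UMIs the 2 were Fgfr4 and Fgfr3 (0.65), with Fgf7 at 0.44. By size alone, without the filter on 20 UMIs, 6 of 30 called ratios were past the fold under every alternative: Fgfr3 in sclerotome and visceral mesenchyme, Fgfr4 in sclerotome and mesenchyme, Fgf9 in other mesenchyme and Spry1 in mural cells. Spry2 in epithelial cells was past it in the 14 that gave a ratio. The class with the highest CPM stayed the same for all 20 pairs of gene and library with the higher UMI minimum, for 18 with 1 more marker needed and for 14 with thinning. With free RNA subtracted, Fgf7 turned to -0.70 in mesenchyme and -1.31 in sclerotome. Without cells passing more than 1 gate, Fgfr1 in macrophages came to -0.31, Fgfr3 in epithelial cells to 0.16 and Spry1 in macrophages to 0.35. With thinning, Fgfr2 came to 0.060 in endothelial and 0.18 in coelomic cells, Fgfr3 to 0.76 in coelomic cells, Fgf10 to -1.56 in sympathetic neurons and Spry1 to 1.76 in erythroid cells. With under 5% mitochondrial UMIs, Fgfr2 in coelomic cells came to 0.074, Spry1 in macrophages to 0.53, Spry2 in endothelial cells to 0.13 and Dusp6 in epithelial cells to 1.28. Without cells above 50000 UMIs Fgfr3 in epithelial cells was at 0.011, with 1 more marker needed Fgf7 in sclerotome at -0.050, and as a mean of single-cell CPM Dusp6 in epithelial cells at 0.096. The cause of these changes was not tested. No paired analysis was possible because each genotype had 1 library.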
